A study of Homo sapiens with 6 samples.

Results

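Collagen genes were examined in RNA-seq of cells at day 8 of the hematopoietic differentiation of H1, an established human embryonic stem cell line. The members were the rows of the deposited expression table that carry the symbols of 39 collagen genes, out of 58364 rows with values. Each symbol stood on 1 row. They were grouped by what the encoded chains build: 11 fibrillar collagens, 8 basement membrane collagens (the 6 COL4A genes with COL15A1 and COL18A1) and 20 other collagens. The values are FPKM, in which the fragments of a gene are divided by transcript length and by library size, so levels can be set side by side between genes.

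There were 2 WT libraries and 4 MSX2_KO libraries. The MSX2_KO cells were made from H1 with CRISPR/Cas9 guides against exon 2 of MSX2, a homeobox transcription factor, delivered by lentivirus with puromycin selection, and each line is a single clone. The table names the clones 1# and 2#, with replicates 1 and 2 of each, and names the WT libraries with the same replicate numbers. Labels mention CD31+ cells, an endothelial surface protein used for sorting, for the MSX2_KO libraries and not for WT, whereas the study's text gives CD31+ cells for both. The labels' growth protocol also speaks of HAND1 overexpression, which no sample label repeats. Within each pair of values below, replicate 1 stands first and replicate 2 second. The sources do not say that replicates are separate cultures, so the p-values measure the spread between these libraries, which may be technical.

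Collagen chains wind around each other into a rope-like helix, and the chains of a molecule are often the products of different genes. Fibrillar chains such as those of collagen types I, III and V assemble into the cross-striated fibers of connective tissue, and cells of mesenchymal kind are their best known source. Collagen IV forms the sheet-like network of basement membranes, which endothelial cells lay down with laminin, and collagens XV and XVIII are proteoglycans at the border of that layer. Other members link fibrils to each other, form the beaded filaments of collagen VI or span the cell membrane.

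Depth is unknown, because the table holds no read counts. From values under 0.1 FPKM, the other libraries were 1.02 to 1.18 times as deep as WT replicate 1. The summed FPKM of all rows ran from 555286 to 617120 and 13366 to 14222 rows reached 1 FPKM. MSX2 itself was not lower in the knockout: it measured 3.64 and 1.44 FPKM in WT, 18.0 and 5.62 in clone 1# and 31.8 and 6.69 in clone 2#, so its mRNA does not check the labels. PECAM1, which encodes CD31, lay between 186 and 258 FPKM in all 6 libraries, and its genotype difference did not pass the test (adjusted p = 0.66, limma). PECAM1 does not stand for all 14 endothelial markers examined further below. In that test 3 of the 14 were called lower in MSX2_KO, where 0.321% of all rows tested were. For 7 of the 14, all MSX2_KO libraries lay below both WT libraries, where 9.19% of all rows tested did. Of the defining hematopoietic markers, GATA1 lay between 7.68 and 20.8 FPKM and SPN between 6.19 and 17.4, while PTPRC stayed at or below 0.115 FPKM.

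Collagen mRNA was plentiful in these cells. Of the 39 genes, 16 averaged at least 10 FPKM and 7 at least 100 FPKM over the 6 libraries. COL4A2, an obligate partner of COL4A1 in collagen IV, had the highest mean at 509 FPKM, ahead of COL4A1 at 291, COL6A2 at 257, COL18A1 at 242, COL1A1 at 146, COL1A2 at 142 and COL6A1 at 102. COL15A1 at 93.6 and COL5A1 at 86.4 followed, then COL5A2 at 48.8 and COL3A1 at 33.9. COL26A1, COL4A5, COL27A1, COL9A2 and COL25A1 had means between 11.4 and 18.9 FPKM. This order pools both genotypes and holds in neither: in WT COL6A2 averaged 289 FPKM, above COL4A1 at 206, and in MSX2_KO COL18A1 averaged 297, above COL6A2 at 241. From COL4A2 down to COL3A1 the ranges over libraries of each gene and the next overlapped, except those of COL1A2 (129.9 to 156) and COL6A1 (71.8 to 127). Compared within each library, COL4A2 lay above COL4A1, COL18A1 above COL1A1, COL1A2 above COL6A1 and COL5A2 above COL3A1 in all 6. The other neighbors changed order between libraries.

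A test was run on the 26 members that averaged at least 0.5 FPKM: 9 fibrillar, 6 basement membrane and 11 other collagens. The 13 others never exceeded 0.979 FPKM in any library. They were COL5A3 and COL24A1 of the fibrillar class, COL4A3 and COL4A4, and COL8A1, COL8A2, COL9A1, COL10A1, COL12A1, COL14A1, COL17A1, COL19A1 and COL21A1. COL4A3 and COL21A1 were listed at 0 in at least 1 library. Just inside the limit stood COL16A1, with a mean of 0.562 FPKM, and COL11A2, with 1.13, and just outside it COL24A1, with 0.431, and COL19A1, with 0.346. COL16A1 averaged 0.207 FPKM in WT and 0.740 in MSX2_KO and so passed through the group in which it was higher.

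**Figure D1:**
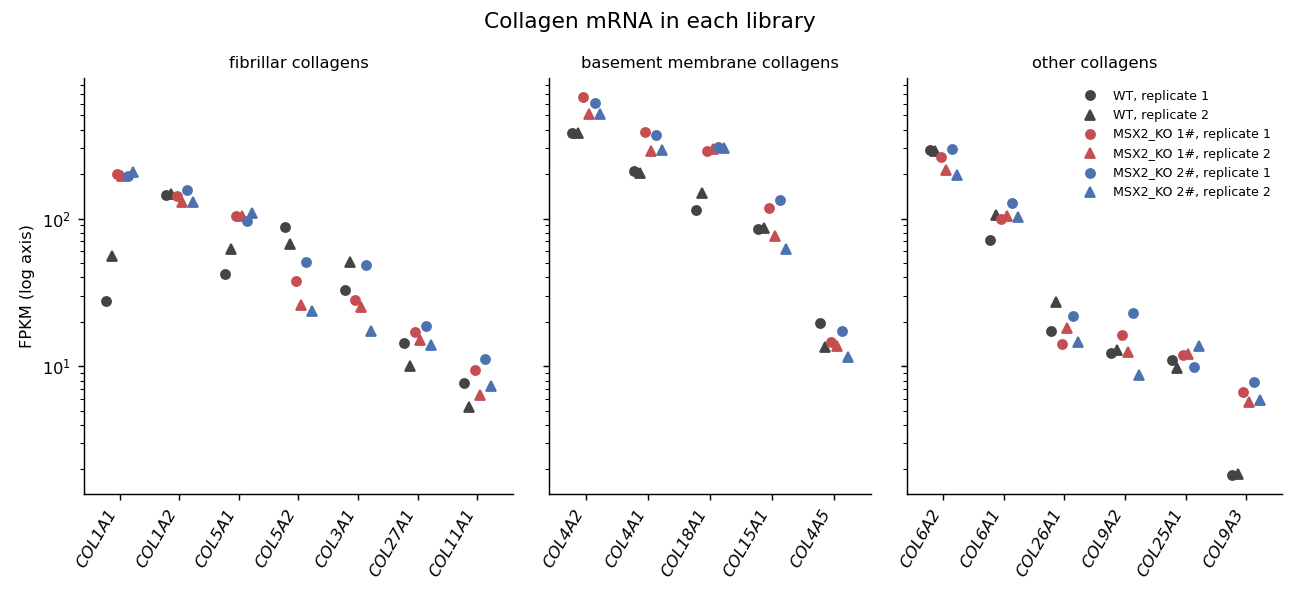
FPKM of the collagen genes that averaged at least 10 FPKM or passed a test, on a log axis, in each of the 6 libraries (grey WT, red clone 1#, blue clone 2#; circles replicate 1, triangles replicate 2). The 4 MSX2_KO points of COL1A1 lie between 193 and 206 FPKM, against 27.7 and 55.9 in WT, while the points of COL1A2 lie between 129.9 and 156 in all libraries.

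The summed FPKM of all 39 genes was 1599 and 1701 in WT, 2451 and 2081 in clone 1#, and 2533 and 2049 in clone 2#. Every MSX2_KO library thus lay above both WT libraries, and in both clones replicate 2 lay below replicate 1. Basement membrane collagens made the largest part of the sum, at 49.2% to 50.9% of it in WT and 56.6% to 60.2% in MSX2_KO. Their summed FPKM averaged 826 ± 16.4 (SD, n = 2) in WT and 1321 ± 155 (SD, n = 4) in MSX2_KO, 1.60 times as much. The fibrillar sum averaged 383 ± 29.2 in WT and 538 ± 39.3 in MSX2_KO, 1.40 times as much. The other collagens averaged 441 ± 26.6 and 419 ± 66.9, a ratio of 0.950 that lies within the spread of the libraries. No test was run on these sums. In bulk RNA, more cells of a type and more RNA per cell cannot be told apart, here and in every comparison that follows.

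**Figure D2:**
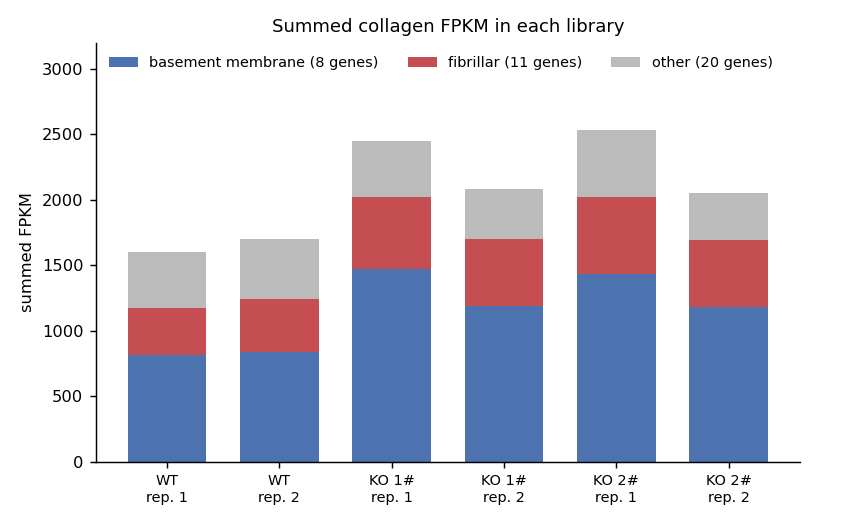
Summed FPKM of the basement membrane, fibrillar and other collagens, stacked, in each of the 6 libraries. The total runs from 1599 to 1701 in WT and from 2049 to 2533 in MSX2_KO, and the basement membrane part is the largest in every library.

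The genotype comparison, 4 MSX2_KO libraries against 2 WT libraries, was tested with limma on log2(FPKM + 1) over all 15895 rows that averaged at least 0.5 FPKM, with Benjamini-Hochberg adjustment. Of the 26 collagen genes tested, 4 were higher in MSX2_KO at an adjusted p under 0.05: COL1A1, COL5A1, COL18A1 and COL9A3. Over all rows tested 0.963% were called higher. None of the 26 was called lower by limma, where 0.321% of all rows were. At an unadjusted p under 0.05, 7 members were higher and 1 lower, where 1873 of the 15895 rows passed in either direction. The 7 include COL16A1, which passed the limit on low FPKM only through MSX2_KO. The libraries pair by replicate number, and with that number as a block 6 members were higher, where 6.11% of all rows were, and 1 was lower, where 3.74% were. COL4A1 and COL4A2 joined the higher genes and COL5A2 was the lower one. The median log2 fold change was 0.24 over the 26 members and 0.01 over all rows.

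Counted without a model, all 4 MSX2_KO libraries lay above both WT libraries for 6 of the 26 members, where this held for 12.1% of all rows. These are the 6 higher members just named, which were called on the same libraries, so the count is no separate test. The separation also held for COL16A1, which passed the limit on low FPKM only through MSX2_KO and is left out of that count. No such rows were left out of the share of all rows. The MSX2_KO libraries lay below both WT libraries for 2 members, COL5A2 and COL7A1, against 9.19% of all rows. Set against the same-numbered WT library, MSX2_KO was higher in all 4 pairs for 11 of the 26 members, where 23.6% of all rows were. These 11 still include COL16A1. MSX2_KO was lower in all 4 pairs for 3 members, where 21.4% of all rows were. The 4 pairs use each WT library 2 times, so they are not 4 separate comparisons.

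Without the block the calls rested on having every library. Leaving out any 1 of the 4 MSX2_KO libraries left 0 of the 4 calls, leaving out WT replicate 1 left COL1A1 alone, and leaving out WT replicate 2 left COL1A1, COL5A1 and COL18A1. With the block, COL1A1, COL5A1, COL18A1, COL9A3 and COL4A1 stayed called whichever library was left out. With no filter on low FPKM, COL5A1, COL4A1, COL4A2 and COL5A2 lost that call. Clone 1# alone against WT left COL1A1, COL18A1 and COL5A2 called, and clone 2# alone left 0. COL4A2 lost its call without WT replicate 1, at an adjusted p of 0.0732 (limma), and COL5A2 lost its call without WT replicate 2, at 0.0726.

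**Figure D3:**
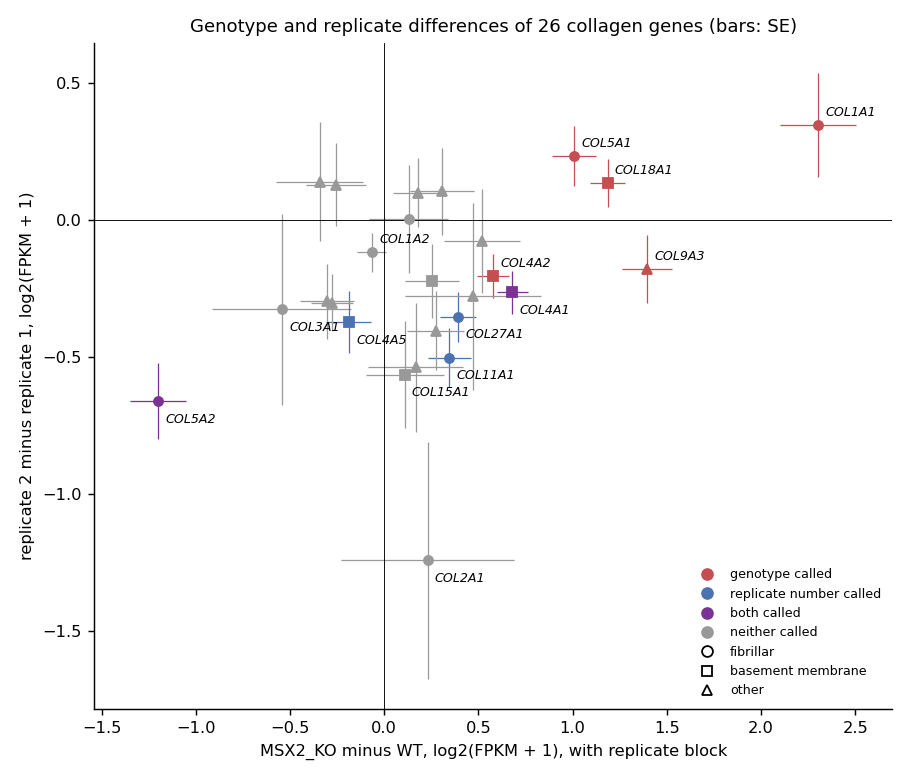
For each of the 26 tested collagen genes, the difference MSX2_KO minus WT (horizontal axis) and the difference replicate 2 minus replicate 1 (vertical axis), both on the log2(FPKM + 1) scale from the fit that holds both terms, with standard errors as bars and with calls from the fit with the block in color. COL1A1, COL9A3, COL18A1 and COL5A1 lie far to the right, with replicate differences between -0.18 and 0.35, and COL5A2 lies low on both axes, at -1.20 and -0.66.

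Among the fibrillar collagens, 2 of the 9 tested rose in MSX2_KO, COL1A1 and COL5A1, and with the replicate block COL5A2 fell. COL1A1, the alpha 1 chain of collagen I (chr17:50183289-50201632 on the minus strand in GENCODE 29, GRCh38), measured 27.7 and 55.9 FPKM in WT, 199.7 and 195 in clone 1#, and 193 and 206 in clone 2#. The 4 MSX2_KO libraries were close to each other, whereas the 2 WT libraries differed about as 1 to 2. The means were 41.8 ± 19.9 FPKM (SD, n = 2) and 198 ± 5.52 FPKM (SD, n = 4), 4.75 times as high in MSX2_KO. On the log2(FPKM + 1) scale the difference was 2.30 ± 0.25 (SE), with an adjusted p of 0.0152 without and 0.00258 with the block (limma).

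COL1A2 encodes the alpha 2 chain, which joins alpha 1 chains in the usual molecule of collagen I. Its levels were 144 and 148 FPKM in WT, 143 and 131 in clone 1#, and 156 and 129.9 in clone 2#. The groups overlapped, and the difference of -0.07 ± 0.11 (SE) on the log2(FPKM + 1) scale did not pass the test, with an adjusted p of 0.923 without and 0.639 with the block. The 2 genes of collagen I therefore stood in another order in the 2 genotypes: among the 11 fibrillar genes COL1A1 ranked 5 by its WT mean and 1 by its MSX2_KO mean, while COL1A2 ranked 1 and 2.

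COL5A1 and COL5A2 encode chains of collagen V, which is found inside collagen I fibrils and limits their diameter. COL5A1 (chr9:134641774-134844843, plus strand, overlapped by COL5A1-AS1) measured 41.8 and 62.0 FPKM in WT, 105 and 104 in clone 1#, and 97.0 and 109 in clone 2#. All MSX2_KO libraries lay above both WT libraries, by 1.01 ± 0.16 (SE) on the log2(FPKM + 1) scale, with an adjusted p of 0.0476 without and 0.00587 with the block (limma). When the libraries were rescaled to each other the adjusted p was 0.0727 without and 0.00601 with the block.

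COL5A2 (chr2:189031896-189225312, minus strand) measured 88.0 and 67.1 FPKM in WT, 37.7 and 25.9 in clone 1#, and 50.5 and 23.6 in clone 2#. Every MSX2_KO library lay below both WT libraries, and in WT and in each clone replicate 2 lay below replicate 1. Its genotype difference was -1.20 ± 0.32 (SE) without the block, at an adjusted p of 0.178, and -1.20 ± 0.15 with it, at 0.0073 (limma). The partner chains of collagen V thus moved in opposite directions, COL5A1 up and COL5A2 down, where the fit held the replicate number.

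COL3A1, whose product forms a homotrimer that is common in vessel walls, measured 32.9 and 51.1 FPKM in WT, 28.0 and 25.0 in clone 1#, and 48.8 and 17.4 in clone 2#. The groups overlapped, and its difference of -0.54 ± 0.39 (SE) had an adjusted p of 0.708 without and 0.405 with the block. COL11A1, a chain of the cartilage collagen XI that also pairs with collagen V chains, lay between 5.27 and 11.1 FPKM. COL27A1, a fibrillar collagen of cartilage and other tissues, lay between 9.99 and 18.7. Both were higher in MSX2_KO in all 4 same-number pairs, without passing the genotype test in either fit. COL2A1, the main collagen of cartilage, ranged from 1.06 to 12.4 FPKM, with both extremes in clone 2#.

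The ratio of partner chains showed the shift in each library. COL1A1 over COL1A2, a ratio of FPKM values and so per transcript length, was 0.192 and 0.378 in WT, 1.40 and 1.49 in clone 1#, and 1.24 and 1.58 in clone 2#. COL5A1 over COL5A2 was 0.476 and 0.925 in WT, 2.78 and 4.01 in clone 1#, and 1.92 and 4.61 in clone 2#. For both pairs the WT and MSX2_KO ranges were apart, and every WT library had fewer alpha 1 than alpha 2 transcripts while every MSX2_KO library had more. COL4A1 over COL4A2 was 0.552 and 0.532 in WT and between 0.564 and 0.608 in MSX2_KO. COL6A1 over COL6A2 was 0.246 and 0.367 in WT and between 0.380 and 0.525 in MSX2_KO. COL9A3 over COL9A2 was 0.148 and 0.146 in WT and between 0.345 and 0.678 in MSX2_KO. The ranges of these pairs were apart as well, so separation was not particular to collagens I and V. No test was run on the ratios.

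**Figure D4:**
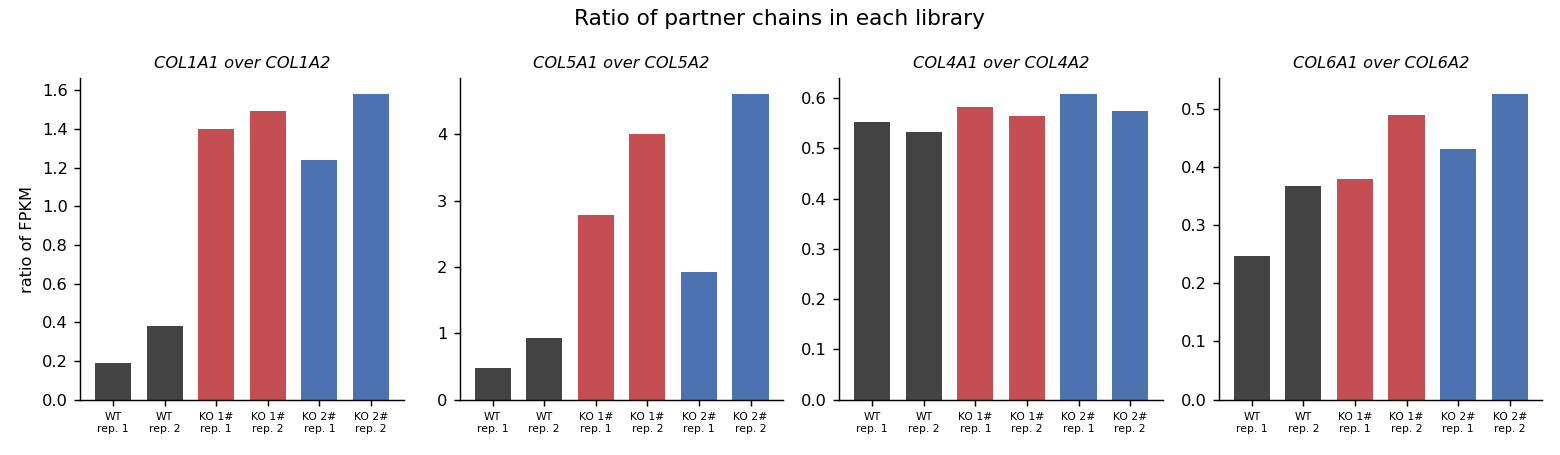
Ratio of FPKM for 4 pairs of genes whose chains assemble together, as bars from 0 for each library (grey WT, red clone 1#, blue clone 2#), each panel with its own axis. COL1A1 over COL1A2 is at most 0.378 in WT and at least 1.24 in MSX2_KO, and COL4A1 over COL4A2 is at most 0.552 in WT and at least 0.564 in MSX2_KO.

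Of the 6 basement membrane collagens tested, COL18A1 rose in MSX2_KO, and COL4A1 and COL4A2 were called only with the replicate block. COL18A1 encodes collagen XVIII, whose carboxy-terminal fragment is endostatin. It measured 114 and 149 FPKM in WT, 287 and 296 in clone 1#, and 306 and 299.8 in clone 2#. The MSX2_KO libraries were close to each other and about 2 times as high as WT: the means were 131 ± 24.8 (SD, n = 2) and 297 ± 7.98 FPKM (SD, n = 4), a ratio of 2.26. The difference on the log2(FPKM + 1) scale was 1.19 ± 0.12 (SE), with an adjusted p of 0.0150 without and 0.00185 with the block (limma). Its span, chr21:45405137-45513720 on the plus strand, overlaps SLC19A1 and a pair of antisense RNAs on the other strand, and the sources used here do not say whether strand was used.

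COL4A1 and COL4A2 encode the chains of the common collagen IV molecule and lie head to head on chromosome 13. COL4A1 measured 210.0 and 203 FPKM in WT, 386 and 288 in clone 1#, and 367 and 294 in clone 2#. COL4A2 measured 381 and 381 in WT, 664 and 511 in clone 1#, and 604 and 513 in clone 2#. Both genes had their highest values in replicate 1 of the clones, and no MSX2_KO library came as low as WT. The log2(FPKM + 1) differences were 0.68 ± 0.15 (SE) for COL4A1, with an adjusted p of 0.105 without and 0.00715 with the block, and 0.58 ± 0.13 for COL4A2, with 0.111 and 0.0118 (limma). The 2 genes were 1.62 and 1.50 times as high in MSX2_KO by their means.

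The stretch between the start sites of COL4A1 and COL4A2 is shown because both genes are read from it, in opposite directions. The start sites are 127 bases apart in RefSeq (GRCh38.p14), and the 126 bases between them, chr13:110307158-110307283 on the plus strand, have a GC content of 80.2%. Capitals mark matches on either strand to GGGCGG, the GC box, to CCAAT, the box that the factor NF-Y binds, to TATAAA, a form of the TATA box, and to TAATTG, a core that homeobox proteins bind.
COL4A1-COL4A2: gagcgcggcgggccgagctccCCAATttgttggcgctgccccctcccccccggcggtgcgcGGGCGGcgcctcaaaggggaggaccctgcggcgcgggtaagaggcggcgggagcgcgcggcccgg
It holds 1 CCAAT and 1 GGGCGG. In GENCODE 29 the spans of the 2 genes overlap, and a count without strand could not divide reads there.

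COL18A1 is read from 2 start sites in RefSeq, and COL5A1 is another member that rose, so the 250 bases before each of their starts are given with the same capitals. They are chr21:45404915-45405164 and chr21:45455272-45455521 for COL18A1 and chr9:134641553-134641802 for the first start of COL5A1, all on the plus strand of GRCh38.p14.
COL18A1 start 1: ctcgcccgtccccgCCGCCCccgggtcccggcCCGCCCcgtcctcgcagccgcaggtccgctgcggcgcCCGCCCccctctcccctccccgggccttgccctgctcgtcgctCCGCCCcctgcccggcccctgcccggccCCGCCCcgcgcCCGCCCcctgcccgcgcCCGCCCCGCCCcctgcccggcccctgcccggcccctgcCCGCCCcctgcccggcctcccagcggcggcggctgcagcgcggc
COL18A1 start 2: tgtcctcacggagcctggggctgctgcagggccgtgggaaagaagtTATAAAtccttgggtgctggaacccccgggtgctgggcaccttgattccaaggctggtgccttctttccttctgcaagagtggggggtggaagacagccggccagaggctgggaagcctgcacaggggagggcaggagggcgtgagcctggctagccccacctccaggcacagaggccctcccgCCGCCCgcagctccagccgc
COL5A1 start 1: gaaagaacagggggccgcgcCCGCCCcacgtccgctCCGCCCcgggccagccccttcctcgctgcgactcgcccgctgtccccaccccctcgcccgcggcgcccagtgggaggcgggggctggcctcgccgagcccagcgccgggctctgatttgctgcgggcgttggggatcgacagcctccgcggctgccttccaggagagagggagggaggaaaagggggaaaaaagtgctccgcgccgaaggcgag
The first COL18A1 start has 9 GGGCGG matches, of which a pair overlaps, the second has 1 GGGCGG and 1 TATAAA, and COL5A1 has 2 GGGCGG. The FPKM table has 1 row per gene, so the use of the 2 starts of COL18A1 was not measured here. Windows of 300 bases (250 before a start and 50 after it) were at hand for 30 members. They had 42 windows, of which 23 held GGGCGG, 13 CCAAT, 7 TATAAA and 2 TAATTG. Among all 35116 windows of that length, 45.0% hold GGGCGG, 34.6% CCAAT, 11.5% TATAAA and 7.38% TAATTG.

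The remaining basement membrane genes did not pass the genotype test. COL15A1, a collagen of vessel and muscle basement membranes, measured 85.2 and 86.9 FPKM in WT, 117 and 76.3 in clone 1#, and 134 and 61.8 in clone 2#. Replicate 1 of both clones lay above WT and replicate 2 of both clones below it, and the mean difference was 0.11 ± 0.31 (SE). COL4A5, which together with COL4A6 or with COL4A3 and COL4A4 forms rarer collagen IV molecules, measured 19.5 and 13.5 in WT, 14.6 and 13.8 in clone 1#, and 17.3 and 11.5 in clone 2#. COL4A6, which starts 380 bases from COL4A5 on the X chromosome by its nearer start, lay between 4.38 and 6.46 FPKM. COL4A3 and COL4A4, known from the kidney filter, were at or below 0.085 FPKM everywhere.

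Among the other collagens COL9A3 was the only one of 11 tested that was called in the genotype comparison. It encodes a chain of collagen IX, which decorates the fibrils of cartilage, and measured 1.83 and 1.87 FPKM in WT, 6.68 and 5.69 in clone 1#, and 7.86 and 5.92 in clone 2#. The means were 1.85 ± 0.0281 (SD, n = 2) and 6.54 ± 0.976 FPKM (SD, n = 4), a ratio of 3.53 that the log2(FPKM + 1) scale understates at 1.39 ± 0.18 (SE). The adjusted p was 0.0258 without and 0.00315 with the block (limma). COL9A3 (chr20:62816244-62841159, plus strand) overlaps TCFL5 on the other strand.

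Its partner COL9A2 measured 12.3 and 12.8 FPKM in WT, 16.4 and 12.4 in clone 1#, and 22.8 and 8.74 in clone 2#, overlapping between genotypes, and COL9A1 never exceeded 0.472. Collagen VI, the beaded filament at cell surfaces, was represented by COL6A1 and COL6A2. COL6A1 measured 71.8 and 105 FPKM in WT, 99.1 and 104 in clone 1#, and 127 and 103 in clone 2#. COL6A2 measured 291 and 287 in WT, 261 and 213 in clone 1#, and 295 and 196 in clone 2#. Both overlapped between genotypes and neither passed the test, with adjusted p of 0.617 for COL6A1 and 0.649 for COL6A2. COL6A3, the longest chain of collagen VI, lay between 1.53 and 6.31 FPKM.

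A further 2 genes of this class averaged over 10 FPKM. COL26A1, which is little studied, measured 17.4 and 27.3 FPKM in WT, 14.1 and 18.3 in clone 1#, and 21.8 and 14.6 in clone 2#. COL25A1, a transmembrane collagen known from neurons and muscle, measured 11.0 and 9.77 in WT, 11.9 and 12.1 in clone 1#, and 9.95 and 13.8 in clone 2#. The groups of both genes overlapped. COL13A1 and COL23A1, which also span the membrane, and COL7A1, the anchoring fibril of skin, lay between 2.66 and 7.88 FPKM and did not pass the genotype test.

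The replicate number was compared as 3 libraries of replicate 2 against 3 of replicate 1, with genotype in the fit. Here 5 collagen genes fell in replicate 2 at an adjusted p under 0.05, COL5A2, COL11A1, COL27A1, COL4A1 and COL4A5, where 18.9% of all rows were called lower. None rose by limma, where 15.6% of all rows were called higher. At an unadjusted p under 0.05 the members counted 10 lower and 0 higher, where 7364 of the 15895 rows passed in either direction. The median log2 difference was -0.24 over the members and -0.03 over all rows. Replicate 2 lay wholly below replicate 1 for COL2A1, COL11A1, COL4A5 and COL23A1, as it did for 22.7% of all rows, and wholly above it for 0 members, as it did for 18.8% of all rows. The 5 members that fell made a share of the 26 close to that of all rows.

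COL5A2 fell by 0.66 ± 0.14 (SE) in replicate 2, with an adjusted p of 0.0155, COL11A1 by 0.50 ± 0.11, with 0.0162, and COL27A1 by 0.35 ± 0.09, with 0.0295 (limma, log2 scale). COL4A5 fell by 0.37 ± 0.11, at 0.0466, and COL4A1 by 0.26 ± 0.08, at 0.0444. COL4A1 differed little between the WT replicates, at -0.05, and by -0.42 and -0.32 in the 2 clones. With rescaled libraries COL5A2 and COL11A1 were the members still called. Over the MSX2_KO libraries left out in turn the calls that held were COL5A2 and COL11A1 without 1# replicate 1, none without 1# replicate 2, COL5A2 without 2# replicate 1 and COL11A1 without 2# replicate 2. COL1A1, COL5A1 and COL18A1, which were higher in MSX2_KO, had replicate differences of 0.35 ± 0.19, 0.23 ± 0.11 and 0.13 ± 0.09, which did not pass the test.

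The genotype difference of COL1A1 was 2.81 in clone 1# and 2.76 in clone 2# within replicate 1, and 1.79 and 1.86 within replicate 2. It was positive in all 4 pairs and smaller in replicate 2, in which the WT level was higher. COL15A1 turned sign, from 0.45 and 0.65 in replicate 1 to -0.19 and -0.48 in replicate 2. In the fit of the interaction each replicate number has 1 WT library. The residual spread thus came from the MSX2_KO libraries alone, and WT was assumed to vary like them. All genes share the same 2 WT libraries, so their interactions are not separate observations. The interaction of genotype with replicate number passed an adjusted p under 0.05 for 0 of the 26 collagen genes by limma, and for 0.0189% of all rows. At an unadjusted p under 0.05 it was negative for 8 members and positive for 0, where 1817 of the 15895 rows passed in either direction. For COL1A1 the interaction was -0.96, with an adjusted p of 0.222, and for COL15A1 -0.89, with 0.367, so differences between replicates in the genotype effect were not called.

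The 2 clones did not differ in the test. Compared over 2 libraries each by limma, 0 of the 26 collagen genes and 0% of all rows passed. An unadjusted p under 0.05 was found for 0 members and for 225 of the 15895 rows. The median log2 difference of clone 2# minus clone 1# was 0.01 over the members. COL1A1 lay between 193 and 206 FPKM over both clones. COL2A1 measured 5.93 and 3.39 FPKM in clone 1# and 12.4 and 1.06 in clone 2#, and its replicate difference of -1.24 ± 0.43 (SE) did not pass the test, with an adjusted p of 0.0691.

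An exact permutation test of a single gene cannot pass 0.05 here. Splitting 6 libraries 4 against 2 allows 15 splits, and the smallest two-sided p, the smaller tail doubled, is 0.133. The test was run on the 16 members that averaged at least 10 FPKM, which leaves out COL9A3. Of these 16, COL1A1, COL5A1, COL5A2, COL4A1, COL4A2 and COL18A1 were at that floor.

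Genes that fold, process or bind collagen were counted in the same fits, in which 0.963% of all rows were higher and 0.321% lower without the block, 6.11% and 3.74% with it, and 15.6% and 18.9% in replicate 2. At an unadjusted p under 0.05, 1873 of the 15895 rows passed in either direction by genotype without the block and 4247 with it. Of 21 tested enzymes and chaperones of collagen folding, 1 was higher in MSX2_KO without the block and 4 with it, and none was lower. FKBP10, a prolyl isomerase for collagen I, measured 212 and 208 FPKM in WT and 292 to 324 in MSX2_KO, and CREB3L1, a transcription factor of collagen secretion, 9.19 and 4.87 in WT and 12.7 to 18.5. SERPINH1, the collagen chaperone HSP47, measured 392 and 549 in WT, 547 and 471 in clone 1#, and 526 and 516 in clone 2#, an overlap between genotypes. In replicate 2, 8 genes of this list fell and 3 rose.

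Of 13 tested genes for procollagen processing and crosslinking, 0 were higher and 1 was lower in MSX2_KO in either fit. That gene was TGM2, a transglutaminase, at 157 and 135 FPKM in WT and 73.9 to 90.0 in MSX2_KO. LOX, the lysyl oxidase that starts crosslinking, was low, at 1.31 and 0.509 in WT and 0.933 to 3.17 in MSX2_KO. Of 8 tested collagen receptors none was called in the genotype comparison in either fit by limma, with 0 at an unadjusted p under 0.05 without the block and 1 with it. Of 10 tested proteases and inhibitors, MMP2, a gelatinase, was higher without the block, at 108 and 103 FPKM in WT and 154 to 168 in MSX2_KO. With the block TIMP1 was also higher and MMP9 lower.

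Of 12 tested partners of collagen IV in the basement membrane, 8 fell in replicate 2, where 18.9% of all rows did, led by the laminin chains LAMA4 and LAMA5 and by AGRN. None was called by genotype without the block by limma, with 3 higher at an unadjusted p under 0.05, and with the block LAMA1, LAMB1 and SPARC were higher. SPARC, which binds collagen IV, measured 941 and 926 FPKM in WT, 1499 and 1105 in clone 1#, and 1369 and 1200 in clone 2#. Of 12 tested small proteoglycans and fibril partners, FBLN2, a fibulin, rose in both fits, at 30.9 and 64.6 FPKM in WT and 141 to 151 in MSX2_KO. Like COL1A1 it was low and unequal in WT and even in the clones. BGN and TNXB were higher with the block.

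Markers of other cell types were set beside the collagens, and their part in the collagen results was not tested. The 20 mesenchymal markers summed to 1219 and 1601 FPKM in WT and to between 1299 and 1414 in MSX2_KO, ranges that overlap. THY1, RGS5 and FBLN1 made most of that sum, each above 100 FPKM in every library. Of the 5 defining markers, DCN reached at most 0.979 FPKM and POSTN 0.627, LUM and PDGFRA lay between 0.464 and 4.28, and PDGFRB measured 0.948 and 2.10 in WT and 4.45 to 6.46 in MSX2_KO. DCN was listed at 0 in clone 2# replicate 2 and POSTN in WT replicate 2.

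Of 16 mesenchymal markers tested, 2 were called higher in MSX2_KO without the block, where 0.963% of all rows were, and 6 with it, where 6.11% were. None of the 16 was called lower by limma. With the block the 6 higher markers were TAGLN, CNN1, CSPG4, PDGFRB, DES and ACTA2. Of these, DES passed the limit on low FPKM only through MSX2_KO, the group in which it was higher. At an unadjusted p under 0.05 (limma), 6 markers were higher and 0 lower without the block. With the block 7 were higher and 2 lower, FBN1 and THY1. THY1 measured 687 and 978 FPKM in WT and 603 to 717 in MSX2_KO, and the groups overlapped. CSPG4, a proteoglycan of pericytes, measured 0.762 and 0.902 FPKM in WT and 4.04 to 10.3 in MSX2_KO, and DES, the muscle filament desmin, 0.0969 and 0.134 in WT and 1.05 to 2.89 in MSX2_KO. TAGLN, a smooth muscle actin-binding protein, measured 15.8 and 33.1 FPKM in WT, 90.0 and 88.3 in clone 1#, and 94.2 and 91.4 in clone 2#, with a log2(FPKM + 1) difference of 1.94 and an adjusted p of 0.0300 (limma). CNN1, a calponin of smooth muscle, measured 1.55 and 2.16 in WT and 6.91 to 7.55 in MSX2_KO, with an adjusted p of 0.0152 (limma). These 2 genes had the pattern of COL1A1 and COL5A1, even among the 4 MSX2_KO libraries and above both WT libraries. In the replicate comparison 4 of the 16 markers fell in replicate 2 and 1 rose, where 18.9% of all rows fell and 15.6% rose. TWIST1, PDGFRA, TBX18 and ACTA2 fell by 0.99, 0.96, 0.78 and 0.30 on the log2 scale, and RGS5 rose by 0.21. DCN, LUM, POSTN, FBLN1 and FBN1 stand both in this list and in that of fibril partners.

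**Figure D5:**
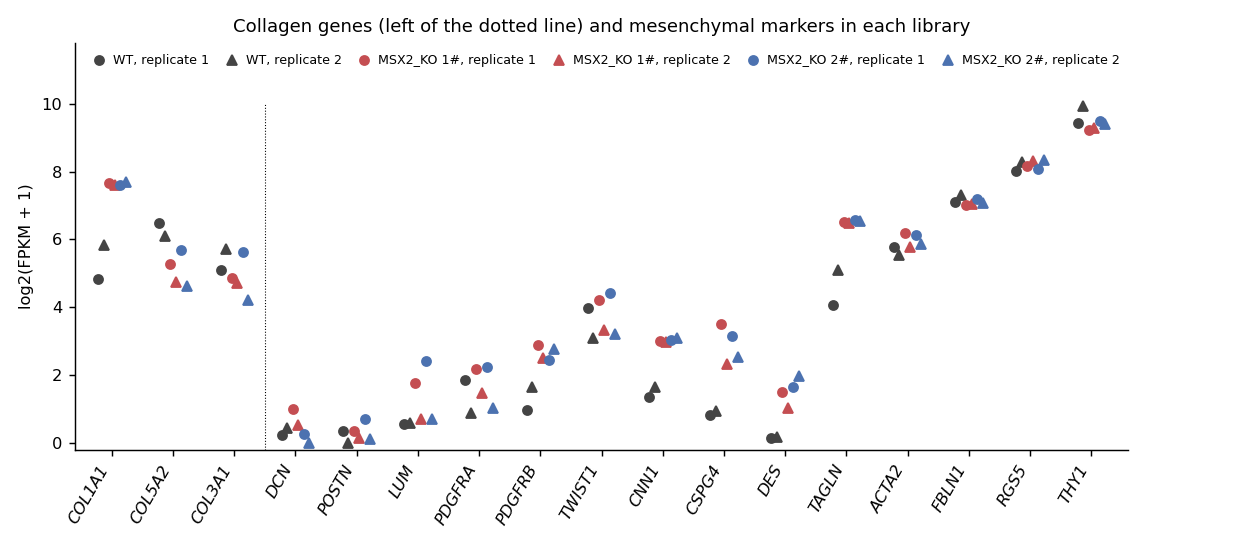
log2(FPKM + 1) of COL1A1, COL5A2 and COL3A1 and of 14 of the 20 mesenchymal markers in each of the 6 libraries (grey WT, red clone 1#, blue clone 2#; circles replicate 1, triangles replicate 2). The other markers of that list are not drawn. Of the 16 tested, all MSX2_KO libraries lay above both WT libraries for 7 and below both for 1, FBN1. TWIST2 and TCF21, too low to be tested, also lay below both WT libraries in all MSX2_KO libraries. TAGLN and CNN1 are even in the 4 MSX2_KO libraries and lower in WT, as COL1A1 is, while DCN stays at or below 0.979 FPKM.

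The other marker lists are given by their counts, to be read against the same shares of all rows. Of 14 endothelial markers, all tested, 3 were lower in MSX2_KO without the block, where 0.321% of all rows were, and 8 with it, where 3.74% were. Those 3 were CLDN5, a tight junction protein, at 115 and 96.0 FPKM in WT and 17.1 to 28.2 in MSX2_KO, the receptor TIE1, at 505 and 446 in WT and 315 to 323, and the cadherin CDH5, at 423 and 379 in WT and 230.2 to 269. Of 12 tested hematopoietic markers 4 were higher without the block and 9 with it, and 0 were called lower in either fit. All MSX2_KO libraries lay above both WT libraries for 9 of the 12, where 12.1% of all rows did. The 14 markers listed summed to 130 and 162 FPKM in WT and to between 330 and 409 in MSX2_KO. None of 13 epithelial and endoderm markers was called by genotype without the block, 6 were higher with it, and 7 fell in replicate 2, led by AFP and KRT19. Of 8 tested chondrocyte and osteoblast markers, ALPL was higher in both fits and MATN3 with the block, and ACAN, the cartilage proteoglycan, reached at most 0.118 FPKM beside the cartilage genes COL9A3, COL2A1 and COL11A1. Of 6 tested pluripotency markers 1 was higher with the block. In replicate 2, 5 endothelial markers rose and 0 fell, and 4 hematopoietic markers rose and 1 fell. Beside the 7 that fell, 1 epithelial or endoderm marker rose. Of the chondrocyte and osteoblast markers 2 rose and 1 fell, and of the pluripotency markers 1 rose and 1 fell. Over all rows 15.6% rose and 18.9% fell in replicate 2. The part of these cell types in the collagen values was not tested.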

How the data were processed

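RNA of 6 libraries (WT, n = 2, and MSX2_KO, n = 4) was sequenced with an Illumina TruSeq kit. The authors deposited FPKM, 1 column per library, with no pooling. The design text names BWA and, separately, TopHat with Cufflinks, and the submitters' processing notes list BWA, Bowtie, RSEM and hg19. Which of them made the table, with which version, annotation and use of strand, is not given in the sources used here. Gene coordinates are from GENCODE 29 (GRCh38) and promoters from RefSeq (GRCh38.p14), matched by symbol, and the build behind the table may be another. Without counts no interval for counting error can be given.

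Beside the 58364 rows with values, 1 row had none. Rows with a mean of at least 0.5 FPKM (15895) were tested with limma (version 3.58.1, R 4.3.3) on log2(FPKM + 1), with empirical Bayes moderation and a trend. The pseudocount understates the change of low genes. The Benjamini-Hochberg adjustment was used, with a threshold of 0.05. Genotype was fitted alone and, in another model, beside the replicate number (the block). The numbers pair the libraries: the labels give each number its own set letter, and deviations from the group means correlated at 0.51 (WT and clone 1#), 0.54 (WT and clone 2#) and 0.64 (both clones). Clones were told apart by column names, since the labels number them differently. The fits were tested on simulated data.

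The members and lists were chosen with earlier results of these data known. Collagens averaging 10 FPKM or past a test have every library's value. From each other list, names were taken from the genes past the threshold, up to the 4 with the largest change in a comparison and not all of those, with SERPINH1, SPARC, LOX and MSX2 always. All defining mesenchymal and hematopoietic markers were also named, and those of the other cell types only in part or not at all. THY1, RGS5 and FBLN1 were named after their values were seen. The alternatives were a pseudocount of 0.1, no filter or a mean of at least 1 FPKM, rescaled libraries, summed rows, each clone alone, 3 groups and leaving out each library. Those to the fit with the block were chosen after seeing the data.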

Additional observations from a re-analysis of the deposited data

Results flagged for a closer look

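Among the 4 MSX2_KO libraries, 2 of the 26 collagen genes tested had a library that stood apart from the other 3 by more than Dixon's 95% critical value. Chance gives this in about 1 in 20 groups. For COL11A2, a fibrillar collagen of cartilage, clone 2# replicate 1 was the highest, at 1.65 FPKM with the next library at 1.08. For COL4A6, a basement membrane collagen, clone 2# replicate 2 was the lowest, at 4.45 FPKM with the next at 6.31. Neither gene passed the genotype or the replicate test.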

How the results depend on the processing

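The table holds FPKM without counts, so the depth behind a value is unknown, and 2 WT libraries set the precision of every genotype difference. Counts below are given as higher and lower in MSX2_KO, or in replicate 2. Single genes were followed for the 18 collagens that averaged at least 10 FPKM or passed a test, and not for the others. Over these 18 and 16 alternatives the genotype difference kept its direction and its side of the threshold in 244 cases, lost the call in 37, gained it in 3 and turned in 4. With the block it kept both in 192 cases over 12 alternatives, lost the call in 17 and turned in 7, and over 14 alternatives the replicate difference kept both in 198, lost it in 37, gained it in 9 and turned in 8. The cause of these changes was not tested, though leaving out a library or clone also leaves fewer samples.

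For genotype without the block, 4 and 0 collagen genes and 153 and 51 of all genes were called. The replicate block gave 1 lower collagen gene and 971 and 595 of all genes, and with no filter on low FPKM 309 and 198. WT and both clones as 3 groups gave 0 higher collagen genes and 4 and 2 of all genes. Clone 1# alone gave 0 collagen genes and 0 and 0 of all genes, and clone 2# alone 0, and 0 and 1. With no filter 1 collagen gene, COL18A1, and 65 of all genes were higher. Leaving out each library gave 0 to 3 higher collagen genes, and 7 to 51 and 4 to 25 of all genes.

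With the replicate block, 6 and 1 collagen genes were called. Clone 1# alone gave 2 higher collagen genes and 166 and 68 of all genes. Clone 2# alone gave 0 and 0 collagen genes and 25 and 13 of all genes. With no filter the block gave 3 and 0 collagen genes (COL1A1, COL18A1 and COL9A3). Leaving out each library with the block gave 5 to 6 higher and 0 to 1 lower collagen genes, and 415 to 545 and 222 to 354 of all genes. The adjusted p of COL1A1 ranged from 0.0026 to 0.438 over the alternatives to the fit without the block and from 0.0019 to 0.0589 over those to the fit with it, and that of COL18A1 from 0.0018 to 0.438 and from 0.0014 to 0.0594. For the clones the block changed no call, with 0 collagen genes in both fits.

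For the replicate number, 0 and 5 collagen genes and 2486 and 3006 of all genes were called. Without the genotype term 0 collagen genes were lower, and 1393 and 1719 of all genes were called. With 3 groups as the covariate 2 were lower, with rescaled libraries 2, and with no filter 1, beside 1613 and 1980 of all genes. Leaving out each library gave 0 to 6 lower collagen genes, and 1317 to 2140 and 1724 to 2584 of all genes.

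Single differences that turned had no call in either direction, and are given as the range over the libraries left out. Without the block COL4A5 ran from -0.44 (without WT replicate 2) to 0.061 (without WT replicate 1), COL15A1 from -0.067 (without 2# replicate 1, and below 0 also without 1# replicate 1) to 0.30, and COL9A2 from -0.048 (without 2# replicate 1) to 0.38. With the block the ends were without WT replicate 1 and without WT replicate 2, and COL15A1 ran from -0.34 to 0.55, COL6A1 from -0.023 to 0.64, COL9A2 from -0.27 to 0.61, COL1A2 from -0.18 to 0.048, COL3A1 from -1.25 to 0.16, COL26A1 from -0.71 to 0.019, and COL25A1 from -0.014 to 0.37. For the replicate number COL6A1 ran from -0.12 to 0.27, COL26A1 from -0.10 to 0.38, COL3A1 from -0.80 to 0.031 and COL25A1 from -0.0034 to 0.23. In MSX2_KO alone, COL6A1 was at -0.12 and COL26A1 at -0.10. The summed FPKM of each class kept its direction under every alternative run, at 0.41 to 0.57 for fibrillar, 0.62 to 0.73 for basement membrane and -0.18 to -0.003 for other collagens (log2 of MSX2_KO over WT, leaving out each library).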
